A study of Mus musculus with 8 samples.

Results

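The NuRD genes described here are the 10 genes Chd3, Chd4, Chd5, Mta1, Mta2, Mta3, Hdac1, Hdac2, Mbd2 and Mbd3, which encode paralogous subunits of the nucleosome remodelling and deacetylase complex. They were taken by gene symbol from a fixed list. The list did not use their levels but was chosen with earlier results of these data known. All 10 were found among the 24243 named genes of the female table and the 23906 named genes of the male table. Where a symbol stood at more than 1 locus, the locus with the highest mean level was used.

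The study examined how loss of Snf5 (Smarcb1), which encodes a core component of the SWI/SNF remodeller, affects fetal mouse germ cells. RNA-Seq was performed on germ cells of E15.5 embryos that were purified by an Oct4-EGFP transgene, with 2 control and 2 Snf5 CKO libraries in each sex. The Snf5 CKO embryos were Snf5 fx/Δ with TNAP-Cre, in which Cre is expressed from the Alpl locus and removes the first exon of the floxed allele in primordial germ cells. The control libraries mixed germ cells of Snf5 fx/+ embryos, Snf5 fx/Δ embryos and Snf5 fx/+ embryos with TNAP-Cre, so some control embryos also carried the deleted allele or Cre. All embryos carried Oct4-EGFP. The labels give the strain as C57BL/6, whereas the methods of the study name a mixed background with 129/Sv and ICR. Recombination by TNAP-Cre is not complete. The female libraries and the male controls were pools of several embryos. The male Snf5 CKO germ cells came from fewer embryos than the male controls, and the study lists replicate 2 as an individual embryo, not a pool. In males the pooling thus differed with the genotype.

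NuRD joins ATP-dependent nucleosome remodelling to histone deacetylation. A CHD protein supplies the remodelling ATPase, HDAC1 and HDAC2 remove acetyl groups from histones, MTA proteins are the scaffold that holds the deacetylases, and MBD2 or MBD3, which do not share 1 complex, link the deacetylases to the remodelling ATPase. MBD2 binds methylated CpG sites, whereas mouse MBD3 binds them poorly, and Mbd3 is known for its role when pluripotent cells leave self-renewal. SWI/SNF and NuRD are both remodellers, and their effects on shared regulatory regions are often opposed.

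The deposited values are FPKM, a level per transcript length and library size, so levels can be compared between genes. Smarcb1 was at 23.4 and 22.3 FPKM in female controls and at 4.24 and 2.47 FPKM in female Snf5 CKO libraries. The male controls had 141 and 167 FPKM of Smarcb1, and the male Snf5 CKO libraries 8.73 and 10.1 FPKM. The deleted gene was lower in every Snf5 CKO library than in any control of its sex. The 7 germ cell markers moved in both directions. In females Dppa3, Pou5f1, Tfap2c and Dnd1 were above both controls in both Snf5 CKO libraries, and Ddx4, Dazl and Mael were below both. In males Dazl, Dppa3, Pou5f1 and Tfap2c were above both controls, and Ddx4, Mael and Dnd1 were below both. Ddx4 was at 363 and 296 FPKM in female controls and 249 and 203 FPKM in female Snf5 CKO libraries, and in males it fell from 565 and 458 FPKM to 300 and 237 FPKM (log2 fold change -0.93, adjusted p = 0.036 in limma). The log2 fold change of Mael was -1.94 in females and -2.97 in males, that of Dnd1 was 4.39 and -1.78, and that of Tfap2c was 4.67 and 3.03. Ddx4 and Dazl were thus high in every library, and several germ cell genes differed between the groups. Pou5f1, the gene whose promoter drives the sorting transgene, was itself at 8.63 and 16.7 FPKM in female controls and at 295 and 333 FPKM in female Snf5 CKO libraries. Genes of the somatic cells of the gonad also moved with the groups. The 7 Sertoli cell markers summed to 57.4 and 38.9 FPKM in male controls and to 245 and 285 FPKM in male Snf5 CKO libraries, and 7 of 7 were above both controls in both Snf5 CKO libraries. The 5 Leydig cell markers summed to 85.7 and 58.2 FPKM in male controls and to 19.2 and 15.1 FPKM in male Snf5 CKO libraries, and 5 of 5 were below both controls. The 5 stromal markers summed to 11.5 and 6.80 FPKM in male controls and to 2.54 and 1.86 FPKM in male Snf5 CKO libraries, and 5 of 5 were below both controls. In females the 7 pre-granulosa cell markers summed to 9.81 and 12.3 FPKM in controls and to 25.9 and 24.1 FPKM in Snf5 CKO libraries, with the defining marker Foxl2 at 0.328 and 1.13 FPKM and then 1.67 and 2.07 FPKM, and 6 of the 7 were above both controls and 1 was below. The female stromal sum was 5.88 and 2.11 FPKM in controls and 0.916 and 1.54 FPKM in Snf5 CKO libraries, with 2 of 5 below both controls. The part of these genes and cells in the results that follow was not tested, and in bulk samples fewer cells of a type and less RNA per cell cannot be told apart.

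The CKO and control libraries were compared within each sex by limma on log2(FPKM + 1), and a gene was called when its p, adjusted over all tested loci by the Benjamini-Hochberg method, was under 0.05. In females 1 of the 10 NuRD genes was called lower (Chd5) and 4 were called higher (Chd3, Mta1, Mta2 and Mta3), where 34.7% of all 11520 tested loci were called lower and 27% higher. Female Chd5 had a Snf5 CKO mean of 0.681 FPKM and was tested only through its controls, so its lower call is not independent of the filter. The female Mta2 call is of a locus merged with the adjacent gene Eml3, and the female Chd3 call was lost with both entries of the gene summed. In males 4 were called lower (Chd3, Chd4, Chd5 and Mbd2) and 2 were called higher (Hdac1 and Mta1), where 25.3% of 12269 tested loci were called lower and 21% higher. When the log2 fold change also had to reach 1, 0 NuRD genes were lower and 2 higher in females, against 21.6% and 17.3% of all loci, and 2 were lower and 2 higher in males, against 17.5% and 14.4%. In limma, 5 of the 10 genes in females and 9 of the 10 in males had an unadjusted p under 0.05. The same held for 7618 of all 11520 tested loci in females and 6729 of 12269 in males. The shares of called loci were high in both sexes, so a call of a NuRD gene is common in these data. The median log2 fold change of the 10 genes was 0.37 in females, where the median of all tested loci was -0.13, and -0.56 in males, where that of all tested loci was -0.07.

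The replicate number separates the libraries of replicate 1, which shared a sequencing lane, from those of replicate 2. With it as a block in the fit 2 NuRD genes were called lower and 6 higher in females, against 42.6% and 34.1% of all tested loci. In males 6 were lower and 4 higher with the block, against 41.2% and 35.1%. Without male Snf5 CKO replicate 2 the count of lower genes in males was 2, as Chd3 and Chd4 lost their calls, and the count of higher genes in males was 4 after median-of-ratios scaling and 1 after scaling to a common sum. Fewer of all tested loci were also called in males whichever library was left out. The libraries of the groups did not overlap for 8 of the 10 genes in females (2 lower and 6 higher, against 45.1% and 36.4% of all tested loci) and for 10 of 10 in males (6 lower and 4 higher, against 40% and 34.6%). In both sexes Mbd3, Mta1 and Mta3 were higher and Chd4 and Chd5 were lower in each Snf5 CKO library than in each control library. Female Chd5 was tested only through its controls. How many of all loci moved the same way or opposite ways in the sexes was not counted. The groups moved in opposite directions in the sexes for Chd3, Hdac2 and Mta2, where the female Mta2 value is of the locus merged with Eml3 and the female Chd3 value of its higher entry. The female and male tables were normalized separately, so these values are set side by side and the difference between the sexes was not tested. Biological duplicates allow an exact permutation test no p below 0.333, and p is therefore given from limma alone.

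**Figure D1:**
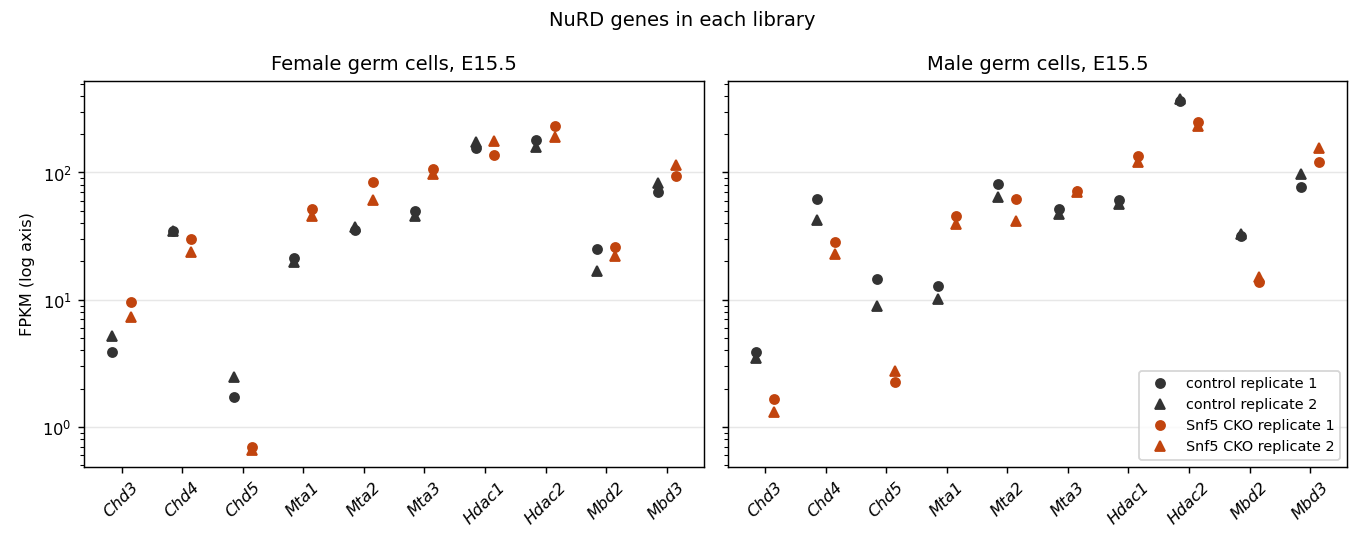
Level of the 10 NuRD genes in each library, in FPKM on a log axis, for female (left) and male (right) germ cells, with controls in black, Snf5 CKO in orange, replicate 1 as circles and replicate 2 as triangles. Hdac2 lay between 159 and 381 FPKM and Chd5 between 0.663 and 14.6 FPKM, and Mta1 was higher in the Snf5 CKO libraries of both sexes.

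The 10 genes spanned a wide range of levels in both sexes. Hdac2 had the highest mean of the 10 genes in all 4 groups, at 170 ± 15.2 FPKM (SD, n = 2) in female controls and 372 ± 12.5 FPKM (SD, n = 2) in male controls. In female controls Hdac1 followed at 164 ± 12 FPKM (SD, n = 2) and overlapped Hdac2. In male controls Hdac1 was only the fourth gene, at 58.9 ± 2.94 FPKM (SD, n = 2), and overlapped Chd4. Mbd3 came next in females, at 76.6 ± 8.38 FPKM (SD, n = 2), and second in males, at 86.8 ± 14 FPKM (SD, n = 2), where it overlapped Mta2. Chd3 and Chd5 were the lowest genes of the female groups and of the male Snf5 CKO group, all under 10 FPKM. In the male controls Chd5 overlapped Mta1, and Chd3 alone was lowest.

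The upstream sequences of 3 NuRD genes are shown because Mta1 was called higher in both sexes, Chd5 was below both controls in each Snf5 CKO library of both sexes, and Hdac2 had the highest mean. The 250 bases before the annotated start were read 5′ to 3′ on the gene's strand from RefSeq (GRCm38.p6), which held such sequences for 6 of the 10 genes, and capitals mark the GC box GGGCGG or its reverse complement. The Mta1 sequence is chr12:113098028-113098277, the Chd5 sequence is chr4:152338401-152338650 and the Hdac2 sequence is chr10:36974294-36974543, all on the plus strand. In these data the Mta1 locus began before the annotated start, at base 113098112 in females and 113097348 in males. The Mta1 sequence thus lay partly inside the female locus and wholly inside the male one. The female Chd5 locus began at base 152338636, near the end of its sequence.
Mta1: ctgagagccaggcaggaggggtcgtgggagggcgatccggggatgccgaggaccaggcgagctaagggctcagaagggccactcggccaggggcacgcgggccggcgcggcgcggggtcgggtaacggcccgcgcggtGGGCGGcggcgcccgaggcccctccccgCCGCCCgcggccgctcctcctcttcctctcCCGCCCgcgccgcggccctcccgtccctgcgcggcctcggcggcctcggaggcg
Chd5: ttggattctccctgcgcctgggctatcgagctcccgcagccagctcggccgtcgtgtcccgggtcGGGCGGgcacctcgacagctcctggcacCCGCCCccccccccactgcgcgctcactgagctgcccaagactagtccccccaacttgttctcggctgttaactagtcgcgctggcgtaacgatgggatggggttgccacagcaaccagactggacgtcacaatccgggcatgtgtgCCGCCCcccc
Hdac2: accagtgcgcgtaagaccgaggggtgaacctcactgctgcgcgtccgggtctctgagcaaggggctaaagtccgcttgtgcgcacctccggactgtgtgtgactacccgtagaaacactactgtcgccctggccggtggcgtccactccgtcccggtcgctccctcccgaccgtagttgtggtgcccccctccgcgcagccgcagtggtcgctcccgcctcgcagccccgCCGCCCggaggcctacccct
The Mta1 sequence held 39 CpG dinucleotides, the Chd5 sequence 21 and the Hdac2 sequence 27, and the median of all 32851 promoter sequences of this length was 6. The Mta1 and Chd5 sequences each held 3 GC boxes and the Hdac2 sequence held 1, and 32.74% of all promoter sequences held at least 1. The CCAAT box was in none of the 3 sequences and in 33.85% of all promoter sequences. The E-box CACGTG was also in none of the 3, and in 6.021% of all. Neither was the E2F motif TTTNNCGC, which 4.28% of all promoter sequences held.

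Chd4, the main NuRD ATPase, lies on chromosome 6 (chr6:125095981-125130591, plus strand, mm10) and has 39 exons in its longest coding transcript. In male controls Chd4 was at 62.4 and 42.2 FPKM, and in male Snf5 CKO libraries at 28.5 and 22.7 FPKM. Both male Snf5 CKO libraries were below both controls, and the controls differed more from each other than the Snf5 CKO libraries did. Chd4 fell by 0.99 on the log2 scale in males (SE 0.25, adjusted p = 0.029 in limma), a call that was lost without control replicate 1 (adjusted p = 0.13) or without Snf5 CKO replicate 2 (adjusted p = 0.096). In females Chd4 was at 34.4 and 34.8 FPKM in controls and at 30 and 23.7 FPKM in Snf5 CKO libraries. The female log2 fold change of Chd4 was -0.37 (SE 0.18, adjusted p = 0.12 in limma, and 0.030 with the replicate block).

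Chd5, an ATPase best known from brain and from the remodelling of chromatin in spermatids, lies on chromosome 4 (chr4:152338651-152390194, plus strand) and was the NuRD gene with the largest fall in males. It was at 14.6 and 8.97 FPKM in male controls and at 2.26 and 2.76 FPKM in male Snf5 CKO libraries. Chd5 thus had a log2 fold change of -1.83 in males (SE 0.28, adjusted p = 0.0067 in limma). In females Chd5 was low in all libraries, at 1.73 and 2.49 FPKM in controls and at 0.700 and 0.663 FPKM in Snf5 CKO libraries. It passed the filter of a mean of 1 FPKM in females only through its controls. A gene at its Snf5 CKO level thus had to be higher in the controls to be tested at all. The female log2 fold change of Chd5 was -0.88 (SE 0.21, adjusted p = 0.0092 in limma). At the annotated locus Chd5 overlaps a noncoding transcript on the other strand, and the counting is not stated to use strand.

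Chd3, the third NuRD ATPase, lies on chromosome 11 (chr11:69343273-69369406, minus strand) and moved in opposite directions in the sexes. In females it was at 3.88 and 5.20 FPKM in controls and at 9.56 and 7.35 FPKM in Snf5 CKO libraries, a log2 fold change of 0.77 (SE 0.22, adjusted p = 0.021 in limma). Male controls had 3.90 and 3.50 FPKM of Chd3 and male Snf5 CKO libraries 1.66 and 1.30 FPKM, a log2 fold change of -0.92 (SE 0.19, adjusted p = 0.015 in limma). The groups did not overlap in either sex. The female table lists Chd3 at a second entry with the same coordinates, at 2.34 and 3.28 FPKM in controls and at 2.56 and 2.09 FPKM in Snf5 CKO libraries, and with both entries summed the female call was lost (adjusted p = 0.091). It was also lost with no filter on low values (adjusted p = 0.057), without control replicate 1 (adjusted p = 0.10) or Snf5 CKO replicate 1 (adjusted p = 0.12), and the male call was lost without Snf5 CKO replicate 2 (adjusted p = 0.060).

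Summed over the 3 ATPases, the level was 80.8 and 54.6 FPKM in male controls and 32.4 and 26.7 FPKM in male Snf5 CKO libraries. In females the sum was 40.1 and 42.5 FPKM in controls and 40.3 and 31.7 FPKM in Snf5 CKO libraries. The sums separated the groups in males and overlapped in females.

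All 3 MTA genes, which encode the scaffold subunits, were called higher in females, with Mta2 at a locus merged with Eml3, and in males only Mta1 was. Mta1 lies on chromosome 12 (chr12:113098278-113137206, plus strand) and has 21 exons in its longest coding transcript. In females Mta1 was at 21.3 and 19.9 FPKM in controls and at 51.9 and 45.3 FPKM in Snf5 CKO libraries, a log2 fold change of 1.20 (SE 0.17, adjusted p = 0.0011 in limma). The male libraries had 12.9 and 10.1 FPKM in controls and 45.5 and 39.4 FPKM in Snf5 CKO, a log2 fold change of 1.81 (SE 0.20, adjusted p = 0.0032 in limma). Mta1 was the NuRD gene with the largest rise in each sex, and its log2 fold change within replicate 1 and within replicate 2 was 1.25 and 1.14 in females and 1.75 and 1.87 in males.

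Mta3, which lies on chromosome 17 (chr17:83706163-83821516, plus strand), was at 49.5 and 45.7 FPKM in female controls and at 106 and 96.5 FPKM in female Snf5 CKO libraries. This was a log2 fold change of 1.07 (SE 0.17, adjusted p = 0.0017 in limma). In males Mta3 was at 51.5 and 47.2 FPKM in controls and at 71.0 and 70.8 FPKM in Snf5 CKO libraries. The male groups did not overlap, but the log2 fold change of 0.52 (SE 0.16) did not pass the test (adjusted p = 0.051 in limma). It passed with no filter on low values (adjusted p = 0.049), with median-of-ratios rescaling (adjusted p = 0.024) and with the replicate block (adjusted p = 0.00098). The male table holds a second, low entry for Mta3 with the same coordinates, at 2.07 and 2.56 FPKM in controls and 0.639 and 0.677 FPKM in Snf5 CKO libraries.

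Mta2, which lies on chromosome 19 (chr19:8941875-8952303, plus strand), differed between the tables in how it was counted. In the female table it is merged with the adjacent gene Eml3, and this locus was at 35.6 and 37.2 FPKM in controls and at 83.9 and 61.3 FPKM in Snf5 CKO libraries (log2 fold change 0.96, SE 0.20, adjusted p = 0.0058 in limma). The female call therefore belongs to both genes. In the male table Mta2 stands alone and was at 81.5 and 63.9 FPKM in controls and at 62.0 and 41.2 FPKM in Snf5 CKO libraries, a log2 fold change of -0.50 (SE 0.26) that did not pass the test (adjusted p = 0.18 in limma, and 0.0023 with the replicate block). Eml3 by itself was at 3.69 and 2.98 FPKM in male controls and at 8.52 and 6.93 FPKM in male Snf5 CKO libraries, far below Mta2.

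With the female Mta2 value taken from the locus merged with Eml3, the 3 MTA genes summed to 106 and 103 FPKM in female controls and to 241 and 203 FPKM in female Snf5 CKO libraries. In males, where Mta2 stands alone, the sum was 146 and 121 FPKM in controls and 179 and 151 FPKM in Snf5 CKO libraries. The sums did not overlap between the groups in either sex, and the female and male sums are not of the same loci.

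**Figure D2:**
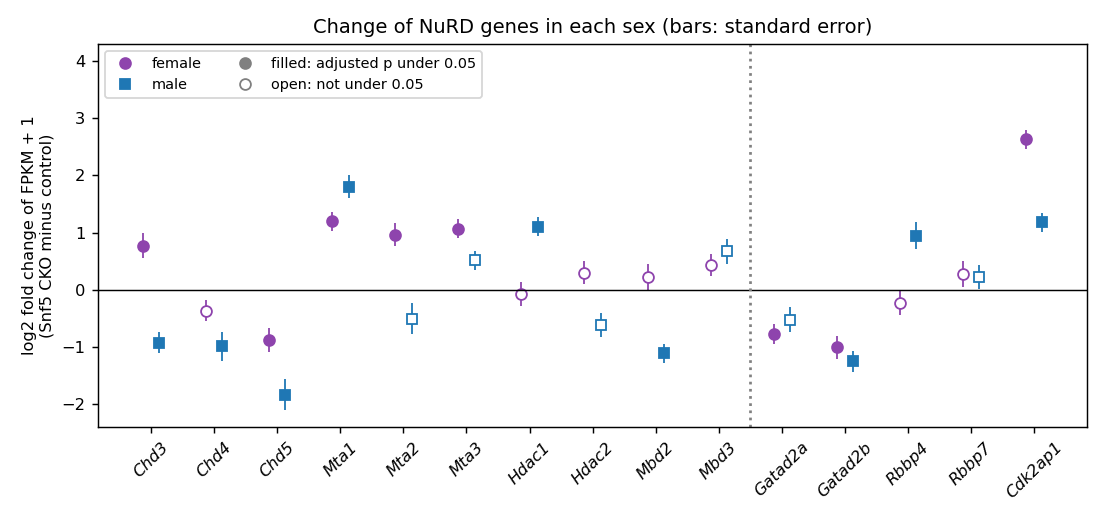
log2 fold change of FPKM + 1 (Snf5 CKO minus control, y axis) of the 10 NuRD genes and, right of the dotted line, of 5 further NuRD subunits, with females as purple circles and males as blue squares, filled where the adjusted p was under 0.05 and with the standard error as bars. Mta1 and Cdk2ap1 were called higher and Gatad2b lower in both sexes, Chd5 was called lower in males and, in females, was tested only through its controls, while Chd3 lay at 0.77 in females and at -0.92 in males.

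Hdac1 and Hdac2 are closely related class I deacetylases that NuRD shares with the Sin3 and CoREST complexes. Hdac1 lies on chromosome 4 (chr4:129516104-129542713, minus strand). Its male levels were 61.0 and 56.9 FPKM in controls and 135 and 121 FPKM in Snf5 CKO libraries, a log2 fold change of 1.10 (SE 0.17, adjusted p = 0.0072 in limma). The call was lost when the libraries were scaled to a common sum over named loci (log2 fold change 0.92, adjusted p = 0.072). In females Hdac1 was at 155 and 172 FPKM in controls and at 138 and 176 FPKM in Snf5 CKO libraries. The female groups overlapped, and the log2 fold change was -0.07 (SE 0.21, adjusted p = 0.78 in limma). Of the 75-base words of the longest coding Hdac1 transcript, 52.5% also occur in another gene, most of them in the processed pseudogene Gm10093 (chr17:78491582-78493025), so its level depends on how reads with several matches were counted, which is not given in the sources used here.

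Hdac2 lies on chromosome 10 (chr10:36974544-37001889, plus strand). Male controls had 363 and 381 FPKM of Hdac2 and male Snf5 CKO libraries 251 and 232 FPKM, a log2 fold change of -0.62 (SE 0.21, adjusted p = 0.060 in limma, 0.037 without the trend on the mean and 0.00049 with the replicate block). In females it was at 181 and 159 FPKM in controls and at 231 and 190 FPKM in Snf5 CKO libraries, a log2 fold change of 0.30 (SE 0.21, adjusted p = 0.24 in limma, and 0.011 with the block). The groups did not overlap in either sex, with the Snf5 CKO libraries on the lower side in males and on the higher side in females.

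The balance between the paralogues was also computed within each library, where a scaling factor of the library cancels. In male controls the ratio of Hdac1 to Hdac2 was 0.168 and 0.149, against 0.536 and 0.524 in the Snf5 CKO libraries. In females it was 0.857 and 1.08 in controls and 0.595 and 0.926 in Snf5 CKO libraries. On the scale of log2(FPKM + 1) the difference of this ratio between the groups was 1.73 in males, and the female ratio overlapped between the groups. Hdac1 and Hdac2 together changed less, from 424 and 437 FPKM in male controls to 386 and 353 FPKM in male Snf5 CKO libraries, and from 336 and 331 FPKM to 369 and 366 FPKM in females. All ratio differences are given as values, with no test that 2 against 2 libraries could pass.

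**Figure D3:**
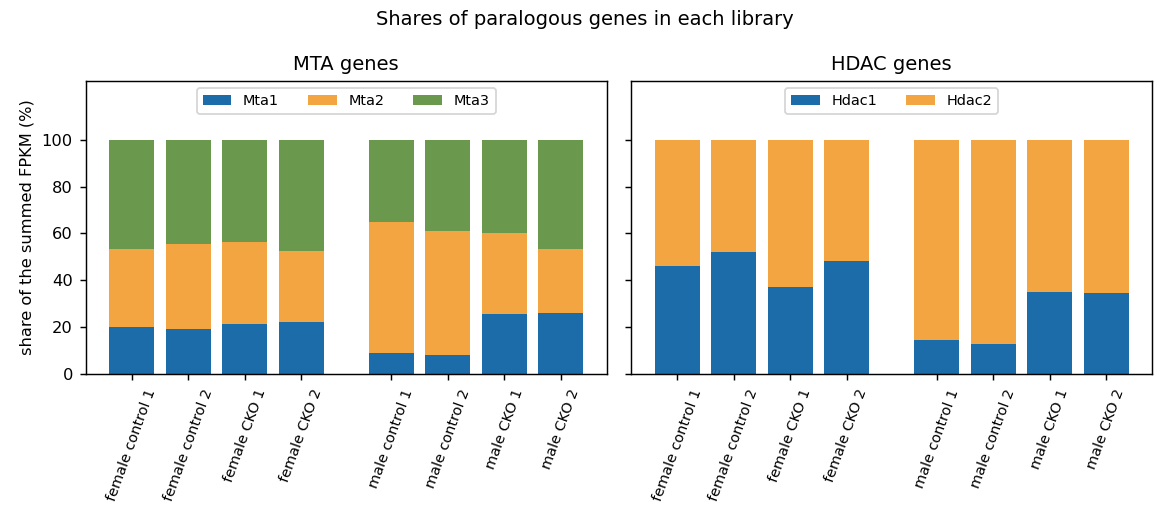
Share of each paralogue in the summed FPKM (percent, y axis) of the MTA genes (left) and HDAC genes (right) in each of the 8 libraries. The Hdac1 share was 14.4% and 13% in male controls and 34.9% and 34.4% in their Snf5 CKO counterparts, and the Mta1 share was 8.82% and 8.33% and then 25.5% and 26%.

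Mbd2, the methyl-CpG binding subunit, lies on chromosome 18. In males it was at 31.9 and 32.6 FPKM in controls and at 13.7 and 15.2 FPKM in Snf5 CKO libraries, and it fell by 1.11 on the log2 scale (SE 0.17, adjusted p = 0.0065 in limma). The replicates of each male group lay close together and the groups were far apart. In females Mbd2 was at 24.9 and 16.8 FPKM in controls and at 26.0 and 22.1 FPKM in Snf5 CKO libraries, with groups that overlapped (log2 fold change 0.22, SE 0.23, adjusted p = 0.43 in limma).

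Mbd3, the alternative subunit, lies on chromosome 10 (chr10:80392539-80399550, minus strand). In males it was at 76.9 and 96.7 FPKM in controls and at 122 and 156 FPKM in Snf5 CKO libraries, a log2 fold change of 0.67 (SE 0.23, adjusted p = 0.063 in limma, 0.035 with median-of-ratios rescaling and 0.00020 with the replicate block). In females it was at 70.6 and 82.5 FPKM in controls and at 93.6 and 114 FPKM in Snf5 CKO libraries, a log2 fold change of 0.43 (SE 0.19, adjusted p = 0.088 in limma, 0.042 with median-of-ratios rescaling and 0.0031 with the block). In both sexes replicate 2 was above replicate 1 in each group, and the groups did not overlap.

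The ratio of Mbd3 to Mbd2 was 2.41 and 2.96 in male controls, against 8.89 and 10.3 in the CKO libraries of that sex. The log2 difference of this ratio was 1.78 in males. In females the ratio was 2.84 and 4.92 in controls and 3.61 and 5.17 in Snf5 CKO libraries, which overlapped. Mbd3 was the more abundant of the pair in every library.

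Among the MTA genes, the ratio of Mta1 to Mta2 was 0.158 and 0.158 in male controls, against 0.733 and 0.957 in the CKO libraries of that sex. The log2 difference of 2.31 was the largest of the 6 ratios computed in males. The ratio of Mta3 to Mta2 was 0.632 and 0.738 in male controls, against 1.15 and 1.72 in the CKO libraries of that sex, so Mta3 was below Mta2 in both controls and above it in both Snf5 CKO libraries. In females, where Mta2 includes Eml3, the 3 MTA genes rose by similar amounts and the ratio of Mta1 to Mta2 stayed between 0.536 and 0.739.

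Among the ATPases, the ratio of Chd4 to Chd3 was 8.88 and 6.71 in female controls and 3.14 and 3.22 in female Snf5 CKO libraries. In males it was 16.0 and 12.1 in controls and 17.1 and 17.4 in Snf5 CKO libraries. The log2 difference of this ratio between the groups was -1.14 in females, and in males it was -0.06 with a pseudocount of 1 and 0.26 with a pseudocount of 0.1. Chd4 exceeded Chd5 by a factor of 4.28 and 4.70 in male controls and of 12.6 and 8.23 in male Snf5 CKO libraries.

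**Figure D4:**
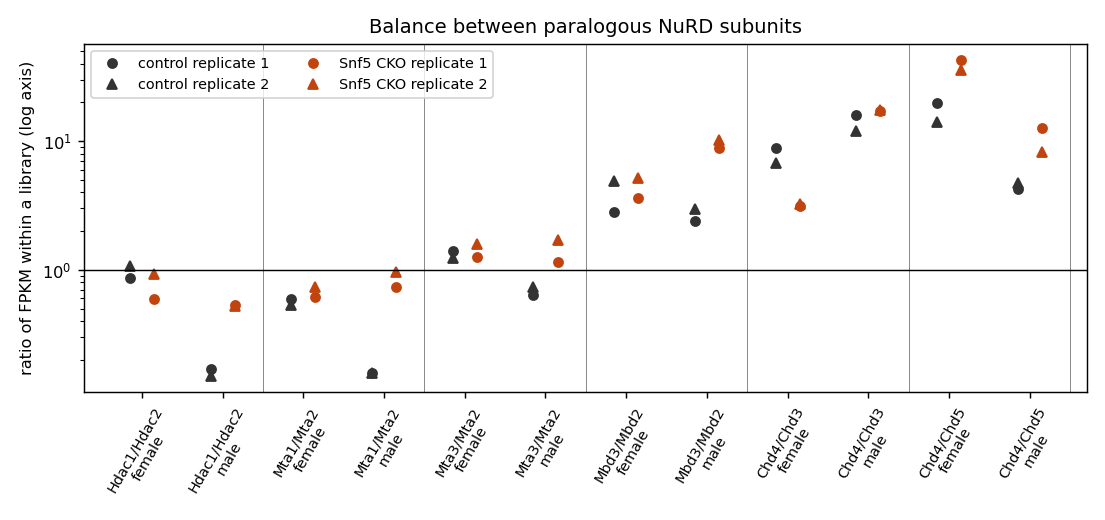
Ratio of FPKM between paralogous NuRD genes within each library (log axis), for females and males, with controls in black, Snf5 CKO in orange, replicate 1 as circles and replicate 2 as triangles; the horizontal line marks a ratio of 1. The male Hdac1/Hdac2, Mta1/Mta2, Mta3/Mta2 and Mbd3/Mbd2 ratios were higher in both Snf5 CKO libraries than in both controls.

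The remaining core subunits were examined as a list of 5 genes. In females 2 of the 5 were called lower and 1 higher, and in males 1 was called lower and 2 higher, with medians of -0.22 and 0.22 on the log2 scale. The count of lower genes in females was 1 without Snf5 CKO replicate 2, and that of higher genes in males was 1 without control replicate 2 or Snf5 CKO replicate 1. With the replicate block 2 were higher in females and 2 lower in males. Gatad2b, a p66 subunit that bridges MBD and CHD proteins, fell in both sexes. It was at 8.57 and 7.49 FPKM in female controls and at 3.96 and 3.07 FPKM in female Snf5 CKO libraries (log2 fold change -1.0, SE 0.20, adjusted p = 0.0050 in limma). Male controls had 10.0 and 9.92 FPKM of Gatad2b and male Snf5 CKO libraries 3.38 and 3.84 FPKM (log2 fold change -1.25, SE 0.18, adjusted p = 0.0062 in limma). Its paralogue Gatad2a was at 101 and 99.0 FPKM in female controls and at 63.1 and 53.6 FPKM in female Snf5 CKO libraries, a log2 fold change of -0.77 (adjusted p = 0.0080 in limma, and 0.063 without Snf5 CKO replicate 2). In males Gatad2a was at 102 and 77.3 FPKM in controls and at 67.4 and 55.8 FPKM in Snf5 CKO libraries (log2 fold change -0.53, adjusted p = 0.11 in limma, and 0.00084 with the replicate block).

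Cdk2ap1, a small NuRD-associated subunit, rose in both sexes. It was at 17.5 and 19.0 FPKM in female controls and at 126 and 111 FPKM in female Snf5 CKO libraries, a log2 fold change of 2.63 (SE 0.17, adjusted p = 9.9e-05 in limma). Male controls had 66.2 and 68.9 FPKM of Cdk2ap1 and male Snf5 CKO libraries 158 and 151 FPKM, a log2 fold change of 1.18 (SE 0.17, adjusted p = 0.0057 in limma). Of the 75-base words of its longest coding transcript, 84.6% also occur in another gene, most of them in Gm12184, so its level also depends on the counting of reads with several matches.

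Rbbp4 and Rbbp7, the histone-binding WD40 subunits, are shared with other complexes. Rbbp4 was at 76.9 and 57.0 FPKM in male controls and at 143 and 115 FPKM in male Snf5 CKO libraries (log2 fold change 0.95, SE 0.23, adjusted p = 0.026 in limma). The male call of Rbbp4 was lost without control replicate 2 (adjusted p = 0.14), without Snf5 CKO replicate 1 (adjusted p = 0.10) and with a common sum over named loci (adjusted p = 0.15). In females Rbbp4 was at 149 and 113 FPKM in controls and at 124 and 99.1 FPKM in Snf5 CKO libraries (log2 fold change -0.22, adjusted p = 0.40 in limma, and 0.036 with the replicate block). The locus of Rbbp4 overlaps the coding gene Sync in both sexes and also Zbtb8os in females, both on the other strand. Rbbp7 was abundant in every library, between 279 and 414 FPKM, with a log2 fold change of 0.27 in females (adjusted p = 0.32, and 0.025 with the block) and of 0.22 in males (adjusted p = 0.44, and 0.0078 with the block). Its locus in the tables spans several neighbouring genes.

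Genes that act with NuRD or share its enzymes were counted over fixed lists. Of the NuRD partners and recruiters, 8 genes were tested in females, where 1 was called lower and 5 higher (median log2 fold change 1.15), and 9 in males, where 2 were called lower and 2 higher (median 0.05). The 1 lower call in females was kept only when control replicate 2 was the library left out, and 1 male gene was called higher without control replicate 1. With the replicate block 4 were higher in males. Sall4, a zinc finger factor that binds NuRD and is expressed in early germ cells, was at 5.72 and 7.63 FPKM in female controls and at 115 and 95.7 FPKM in female Snf5 CKO libraries, a log2 fold change of 3.80 (SE 0.20, adjusted p = 9.6e-05 in limma). Sall4 lay between 74.4 and 102 FPKM in the 4 male libraries, and its male groups overlapped. Zfp296 was at 1.49 and 0.671 FPKM in female controls and at 10.2 and 15.1 FPKM in female Snf5 CKO libraries (log2 fold change 2.72, adjusted p = 0.00033 in limma). In males Bcl11a, another factor that binds NuRD, was at 5.21 and 3.86 FPKM in controls and at 0.361 and 1.0 FPKM in Snf5 CKO libraries (log2 fold change -1.73). Its Snf5 CKO mean was under the filter, so it was tested only through its controls.

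The other complexes with class I deacetylases (Sin3, CoREST and NCoR) had 18 tested genes in females, with 2 called lower and 6 higher (median log2 fold change 0.41), and 17 in males, with 5 called lower and 3 higher (median 0.05). Whichever male library was left out, 1 gene was called higher, and 2 were called lower without control replicate 1 or Snf5 CKO replicate 2. In females 4 were higher without Snf5 CKO replicate 1, 1 was lower without either replicate 1 library, and with the replicate block 10 were higher in females and 8 lower and 7 higher in males. Among them, the Sin3 subunits Suds3 and Sap30 fell in males. Suds3 was at 94.9 and 97.5 FPKM in male controls and at 34.3 and 40.2 FPKM in male Snf5 CKO libraries (log2 fold change -1.35, adjusted p = 0.0044 in limma). Sap30 was at 43.5 and 56.9 FPKM in male controls and at 15.3 and 21.8 FPKM in male Snf5 CKO libraries (log2 fold change -1.40, adjusted p = 0.010 in limma). In females their log2 fold changes were 0.04 and 0.12 and did not pass the test. Ncor1, the corepressor of nuclear receptors, rose in both sexes, with a log2 fold change of 0.89 in females (adjusted p = 0.0072 in limma) and of 1.42 in males (adjusted p = 0.0081 in limma).

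The other CHD, ISWI and INO80 remodellers had 14 tested genes in females, with 6 called lower and 3 higher (median log2 fold change -0.30), and 13 in males, with 3 called lower and 1 higher (median -0.10). The male counts were 0 lower without control replicate 1 or Snf5 CKO replicate 2, 0 higher whichever library was left out and 3 higher with the block, and 5 male genes had an unadjusted p under 0.05 in limma. Smarca5, the ISWI ATPase, was at 402 and 318 FPKM in female controls and at 129 and 102 FPKM in female Snf5 CKO libraries (log2 fold change -1.64, adjusted p = 0.0011 in limma). Ep400 was at 63.1 and 56.5 FPKM in female controls and at 18.6 and 16.9 FPKM in female Snf5 CKO libraries (log2 fold change -1.70, adjusted p = 0.00030 in limma). Of the other methyl-CpG readers 5 were tested in each sex. In females 2 were called lower and 0 higher, with 3 at an unadjusted p under 0.05 in limma, and in males 1 was called lower and 1 higher. The male counts were 2 lower without control replicate 2 or Snf5 CKO replicate 1, 0 higher unless the library left out was Snf5 CKO replicate 2, and 3 lower with the block. Mbd5 was at 12.1 and 9.16 FPKM in female controls and at 2.99 and 2.59 FPKM in female Snf5 CKO libraries (log2 fold change -1.61, adjusted p = 0.00085 in limma). In males Mbd6 was at 9.70 and 9.82 FPKM in controls and at 3.51 and 3.82 FPKM in Snf5 CKO libraries (log2 fold change -1.21, adjusted p = 0.0065 in limma). The counts called in these lists are to be read against the shares of all loci. These were 34.7% lower and 27% higher in females and 25.3% and 21% in males. With the replicate block they were 42.6% and 34.1% in females and 41.2% and 35.1% in males. The unadjusted p in limma was under 0.05 for 7618 of 11520 tested loci in females and 6729 of 12269 in males. Fewer of all loci were called in each direction and sex whichever library was left out.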

How the data were processed

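RNA-Seq of E15.5 germ cells gave 8 libraries in 4 groups of 2, which the study describes as biological duplicates. The p-values measure only the spread between these libraries. The authors mapped the reads with TopHat to mm10, quantified them with Cufflinks tools and deposited 1 table of FPKM per locus for each sex. The annotation and the treatment of reads with several matches are not given in the sources used here. Of the per-sample columns, 16 with confidence bounds stayed unused. Without counts the depth is unknown. Relative depth, estimated from genes under 0.1 FPKM, was between 0.949 and 2.43 times that of control replicate 1. Unnamed loci took 5.46% to 42.1% of the summed FPKM.

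Named loci were kept in each sex when their FPKM, averaged across its control and Snf5 CKO libraries together, reached 1. They were fitted in each sex alone with limma 3.58.1 in R 4.3.3 on log2(FPKM + 1). The moderated variances followed a trend on the mean. The p-values were two-sided and adjusted by the Benjamini-Hochberg method over all tested loci, and the script was tested on simulated data. A fold change on this scale understates the change of low genes. The unadjusted p was under 0.05 for 7618 loci in females and 6729 in males. The NuRD members and all lists were chosen with earlier results of these data known. The text could name the 10 members, Smarcb1, the 5 other NuRD subunits and, of each further list, at most 2 called genes with the largest change per direction and sex. Eml3 and the cell type markers are named for a result that turns on them. Marker lists were fixed for germ, Sertoli, pre-granulosa, Leydig, stromal, and blood and endothelial cells. The markers of blood and endothelial cells summed to between 23.4 and 98.6 FPKM and overlapped between the groups in both sexes, though single markers moved. Pecam1 rose in females from 4.10 and 3.65 FPKM to 24.3 and 19.7 FPKM (log2 fold change 2.23, adjusted p = 0.00020 in limma). In males Pecam1 overlapped between the groups. Cdh5, under 1 FPKM in every library, was below both controls in both sexes. Female Sertoli markers summed to 5.21 and 7.22 FPKM in controls and 16.9 and 15.8 FPKM in Snf5 CKO libraries. Of the 7, 5 were above both controls and 1 below. Female Leydig markers summed to 4.74 and 4.89 FPKM in controls and 12 and 11.8 FPKM in Snf5 CKO libraries. Of the 5, 2 were above both controls. Male pre-granulosa markers summed to 6.45 and 7.12 FPKM in controls and 28.7 and 30.8 FPKM in Snf5 CKO libraries. Of the 7, 4 were above both controls and 2 below. The remaining lists are described with the results.

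The sample descriptions place all 4 libraries of replicate 1 in 1 lane of a flow cell and those of replicate 2 elsewhere, so the number separates that lane from the rest. As a check, the deviations from the group means of same-numbered libraries correlated across genes at 0.500 in females and 0.607 in males. Alternatives were the pseudocount, the filter, the scaling, the variance trend, the replicate block, summed loci, the quantification status, and leaving out each library. Promoters were searched with Python 3.11.15, and overlaps of transcripts were counted as 75-base words of GENCODE transcripts.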

Additional observations from a re-analysis of the deposited data

Results flagged for a closer look

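The groups did not overlap for 45.1% of all tested loci on the lower side and 36.4% on the higher side in females. In males these shares were 40% and 34.6%. How many of all loci moved in opposite directions was not counted, so such a move is not shown to be particular to the genes here. Of the genes that the text could name, those whose libraries moved one way in females and the opposite way in males were set apart. The difference between the sexes was not tested, because the tables were normalized separately. Among the NuRD genes these were Chd3, with a log2 fold change of 0.77 in females and -0.92 in males, Hdac2, with 0.30 and -0.62, and Mta2, with 0.96 at the locus merged with Eml3 in females and -0.50 in males. Among the other remodellers, Chd7 had 1.56 in females and -0.95 in males, and Hells had -1.13 and 0.67, where the male call was lost whichever library was left out (adjusted p from 0.14 to 0.20 in limma). Of the genes of class I deacetylase complexes, Hdac8 had 2.53 in females and -0.74 in males, and Rcor3 had -0.69 in females (adjusted p = 0.022 in limma, and 0.070 and 0.054 without control replicate 1 and without Snf5 CKO replicate 1) and 0.57 in males, where it was under the filter and the value is the mean of the differences within the replicates. Mbd6 had 0.25 in females, which did not pass the test (adjusted p = 0.28 in limma), and -1.21 in males. Sall1, under the filter in females, had 0.82 there and -1.99 in males.

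A further signal lay outside the named genes. An unnamed locus of the male table at one end of Gm10093, the pseudogene copy of Hdac1, was at 18.8 and 3.35 FPKM in controls and at 71.3 and 39.3 FPKM in Snf5 CKO libraries, so both Snf5 CKO libraries were above both controls. The other unnamed male locus there was at 734 and 20.1 FPKM in controls and at 2751 and 48.6 FPKM in Snf5 CKO libraries, and the groups overlapped. Its part in the level of Hdac1 was not tested.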

How the results depend on the processing

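With 2 libraries a group and unknown depth, small changes of single genes are not resolved. Of the members' fold changes under 13 alternatives, 117 values in each sex kept their direction and their side of the threshold, 4 in each sex lost the call, and 4 in females and 8 in males gained one. The count of NuRD genes called lower in females was 0 with a mean of at least 5 FPKM, since Chd5 was then filtered out, and 2 with the replicate block. The count called higher in males was 1 with a common sum over named loci, 4 with median-of-ratios rescaling and 4 with the replicate block. Leaving out 1 library leaves 1 library in its group. Some calls of NuRD genes were then lost in each sex, and fewer of all tested loci were called in each direction and sex. The change of the log2 ratio of Chd4 to Chd3 was -0.87 in females with the loci of a gene summed and 0.26 in males with a pseudocount of 0.1, and that of Chd4 to Chd5 was 1.10 in females with a pseudocount of 0.1. Signs of fold changes reversed only among female values that did not pass the test: Hdac1 was 0.093 with median-of-ratios rescaling, and with 1 library left out Hdac1 ranged from -0.25 to 0.11 and Mbd2 from -0.054 to 0.49. Hdac1 was above 0 without control replicate 2 (0.0043) or Snf5 CKO replicate 1, and Mbd2 below 0 without control replicate 2. The cause of these changes was not tested except where stated.

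Median-of-ratios rescaling moved the all-locus median of the log2 fold change by 0.15 in both sexes, and a common sum moved it by -0.17 in males. In males 3107 loci were called lower and 2579 higher, against 2642 and 1400 with a common sum and 5057 and 4312 with the replicate block. Under the alternatives, leaving out a library included, the counts of genes called in the other lists ranged from 0 to 10.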
